A study of Mus musculus with 46 samples.

Results

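The genes described here are the cytochrome P450 enzymes of families 1 to 3 in mouse liver. They were chosen by name. A probe set of the deposited table was taken where the array platform gives it exactly 1 gene symbol made of Cyp1, Cyp2 or Cyp3, a subfamily letter and a number, and 1 symbol marked as a pseudogene was left out. This gave 52 genes with 1 probe set each, of 19938 genes measured in all. There were 3 Cyp1, 2 Cyp2a, 5 Cyp2b, 13 Cyp2c, 9 Cyp2d, 6 Cyp2j, 8 other Cyp2 and 6 Cyp3a genes. A further 5 probe sets carried several symbols of the family and were not used, so Cyp2a4 and Cyp2a5, which share 1 of them, have no value here. Cyp2d13 is annotated as a transcribed pseudogene.

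P450 enzymes are heme proteins that insert oxygen into drugs, plant compounds, steroids, retinoids and fatty acids. They take electrons from the reductase Por or from cytochrome b5, and their heme is made by a pathway that starts with Alas1. Foreign compounds raise their transcripts through 3 receptors, with the aryl hydrocarbon receptor (Ahr) acting on Cyp1 genes, the constitutive androstane receptor (Nr1i3) on Cyp2b genes and the pregnane X receptor (Nr1i2) on Cyp3a genes. In mouse liver many Cyp2 and Cyp3a genes also differ between the sexes through growth hormone and its mediator Stat5b, and some follow the circadian clock.

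The livers of 46 mice of the hairless stock SKH:QS were each measured on 1 array, in 2 separate experiments on pregnant and on virgin mice. The skin of the back received sunscreen 6 times within 4 days, and livers were collected on day 5, which was about day 17 of gestation in the pregnant mice. The sunscreen held microparticles of zinc oxide labelled with the zinc isotope 68Zn (micro ZnO, 5 pregnant and 6 virgin mice), nanoparticles of the same oxide (nano ZnO, 6 pregnant and 6 virgin mice) or no particles (formulation, 6 pregnant and 6 virgin mice). Untreated mice, 5 pregnant and 6 virgin, were the controls. All mice were housed singly, and Elizabethan collars, fitted against licking, stand in the protocol given for every mouse, though it is not said whether untreated mice wore them. The labels call the mice biological replicates.

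Values are log2 intensities. Array medians lay between 3.98 and 4.12 in pregnant mice and between 4.66 and 4.90 in virgin mice, so levels were compared within an experiment unless stated. The 7 measured hepatocyte markers, such as Alb and Ttr, averaged 12.67 to 12.84 on the pregnant arrays and 13.05 to 13.26 on the virgin arrays. The number of arrays limits the precision, and no detection calls were used. In bulk liver, fewer cells of a type and less RNA per cell cannot be told apart. A gene is called changed at an adjusted p under 0.05 (limma over 23410 probe sets, Benjamini-Hochberg), ± marks the SE of a change unless SD is named, and the percentage of all probe sets called is given as the background of each count of P450 genes. Among pregnant mice of the same arm the SD of a P450 gene ran from 0.096 to 0.524 with a median of 0.236, and among virgin mice from 0.062 to 1.115 with a median of 0.176. The gene with the highest SD in virgin mice was Cyp3a16, followed by Cyp2b10 at 0.597 and Cyp2a22 at 0.495. Intensities of different genes are not compared, since probes differ in brightness.

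In virgin mice treated with the sunscreen base without particles, 13 of the 52 P450 genes fell against untreated mice, 0 rose and 39 were not called. The share called was 25% of the family, near the 26.5% of all probe sets called (15% called lower), and 1 call, that of Cyp2c67, was left with array width, the interquartile range of each array, as covariate. The lowered genes were 6 of the 13 Cyp2c genes, 2 of 9 Cyp2d, 2 of 6 Cyp2j, 1 of 5 Cyp2b and 2 of the 8 other Cyp2 genes. No Cyp1, Cyp2a or Cyp3a gene was called. The median log2 change was -0.06 over the family and 0.03 over all probe sets. Of the 34 genes that lay above the median brightness of all probe sets 12 fell, and of the 18 dimmer ones 1 fell. In 6 of the 13 genes (Cyp2c67, Cyp2c68, Cyp2c23, Cyp2c54, Cyp2j5 and Cyp2j6) every treated mouse lay below every untreated mouse. The shares of all probe sets by brightness, and of those without overlap here or below, were not counted.

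**Figure D1:**
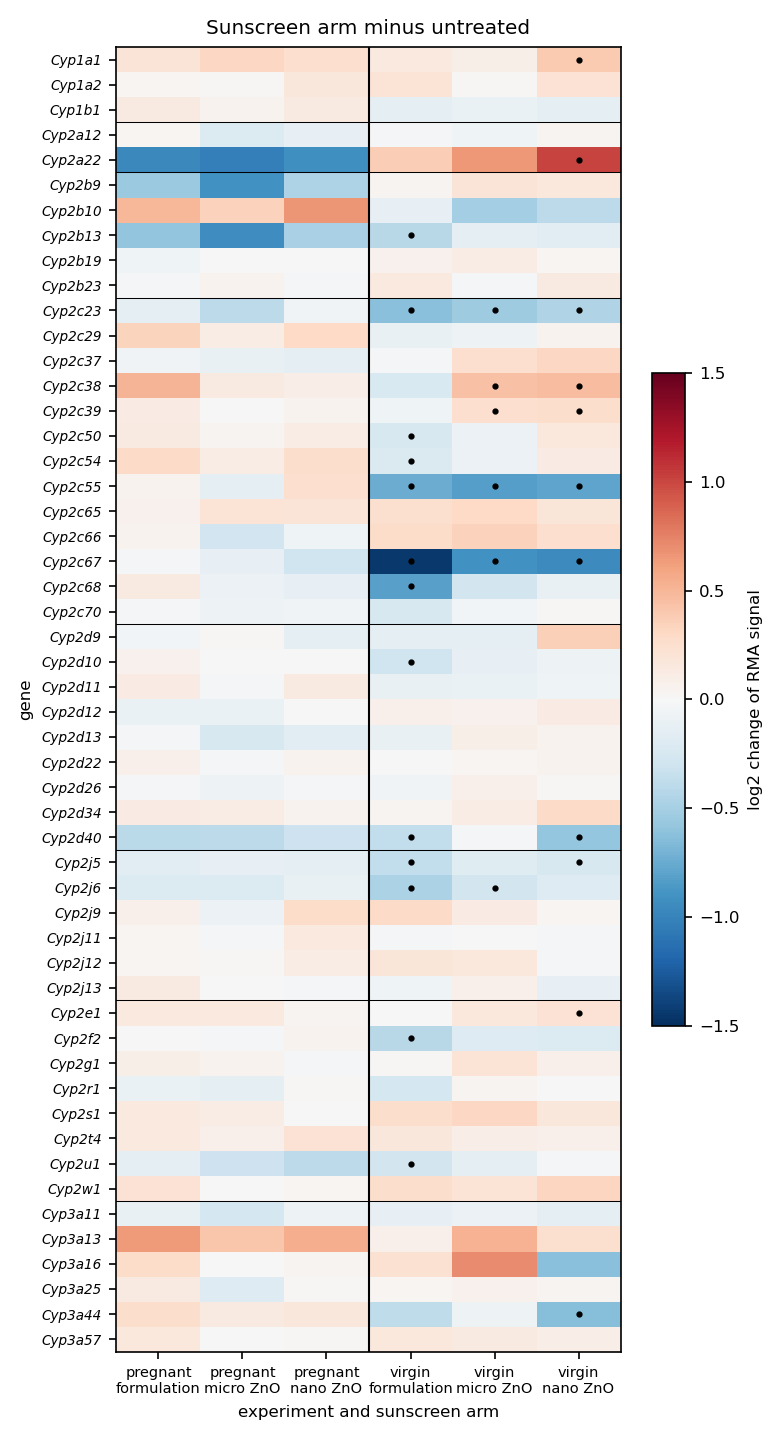
Log2 change of each of the 52 P450 genes (down, by subfamily) in the 3 pregnant and 3 virgin sunscreen arms against untreated mice of the same experiment (across). Colour is limited to 1.5 in each direction and dots mark an adjusted p under 0.05 (limma). The pregnant columns hold 0 dots, and the virgin formulation column holds 13, all on lowered genes.

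Cyp2c67, one of the neighbouring Cyp2c copies on chromosome 19, had the largest fall. Its log2 intensity was 6.99 at the lowest, 7.85 at the median and 7.93 at the highest in formulation mice, and 8.73, 9.13 and 9.64 in untreated mice. The groups did not overlap. The log2 change was -1.44 ± 0.16 (adjusted p 1.7e-06), and the gene remained called with each array left out in turn, between -1.52 and -1.30. Its neighbour Cyp2c68 had 7.18, 7.73 and 7.87 in formulation mice against 8.26, 8.43 and 8.67 in untreated mice, again without overlap, and fell by 0.81 ± 0.13 (adjusted p 0.000207). The formulation mouse with the lowest Cyp2c67 was also the lowest for Cyp2c68. The array has a further probe set shared by Cyp2c40, Cyp2c67, Cyp2c68 and Cyp2c69, so signal from near-identical copies could reach either gene and their separate levels are uncertain.

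The 2 promoter windows are shown because these neighbours carried the largest formulation changes. They run from 250 bases before to 50 bases after the RefSeq start on GRCm38.p6, with the HNF4 letters CAAAGTCC and the TATA box letters TATAAA in capitals. HNF4 is a liver factor that binds many P450 promoters. The Cyp2c67 window is chr19:39648993-39649292 and the Cyp2c68 window is chr19:39741052-39741351, both on the minus strand.
Cyp2c67: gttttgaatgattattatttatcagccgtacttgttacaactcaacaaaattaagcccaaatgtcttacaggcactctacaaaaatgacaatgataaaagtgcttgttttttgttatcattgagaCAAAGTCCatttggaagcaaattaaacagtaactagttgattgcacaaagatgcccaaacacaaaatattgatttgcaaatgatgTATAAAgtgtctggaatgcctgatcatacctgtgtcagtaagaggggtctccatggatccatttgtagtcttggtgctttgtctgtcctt
Cyp2c68: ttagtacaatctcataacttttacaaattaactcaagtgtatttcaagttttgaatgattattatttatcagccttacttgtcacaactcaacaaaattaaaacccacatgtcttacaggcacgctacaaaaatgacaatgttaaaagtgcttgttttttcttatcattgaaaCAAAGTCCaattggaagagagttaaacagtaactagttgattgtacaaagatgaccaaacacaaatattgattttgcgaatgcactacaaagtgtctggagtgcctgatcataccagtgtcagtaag
The windows had 65.9% identity over an alignment of 349 columns, with 21 substitutions and 98 columns against a gap. Most gap columns lie at the ends, since the windows are offset against each other, and they lower the identity. Where both windows have bases, the 21 substitutions are the main differences. The HNF4 letters begin at position -125 in Cyp2c67 and at -77 in Cyp2c68, and these are the same bases in the alignment. The TATA letters at -40 in Cyp2c67 are absent from the Cyp2c68 window. Sequence was at hand for 44 of the 52 genes, in 47 windows. The HNF4 letters stood in 7 of these windows on either strand (14.9%), against 1.42% of all 32851 windows, in Cyp2c65, Cyp2c66, Cyp2c67, Cyp2c68, Cyp2c70, Cyp3a11 and Cyp3a16. The TATA letters stood in 22 of the 47 (46.8%), against 13.6% of all, and the STAT letters TTCNNNGAA in 2 (4.26%), against 8.30%. The PAR-bZIP letters TTATGTAA, bound by the clock factors Dbp, Tef and Hlf, stood in 0 of the 47, against 0.938% of all. A match of letters is a description of the window and not a measured binding site.

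Cyp2c23, Cyp2j5 and Cyp2j6 were among the other genes lowered by the formulation. Cyp2c23, which makes epoxides of arachidonic acid, had 10.08, 10.25 and 10.42 in formulation mice (lowest, median, highest) against 10.67, 10.90 and 11.11 in untreated mice, a change of -0.62 ± 0.14 (adjusted p 0.00199). Cyp2j5, another such epoxygenase, had 10.89, 11.21 and 11.31 against 11.35, 11.53 and 11.59 in untreated mice and changed by -0.37 ± 0.08 (adjusted p 0.00139). Cyp2j6 had 7.24, 7.29 and 7.48 against 7.69, 7.80 and 7.90 in untreated mice and changed by -0.47 ± 0.07 (adjusted p 0.000123). None of these 3 genes overlapped between the groups. Cyp2c38, which also acts on arachidonic acid, was not called with formulation. Cyp2c55, which is inducible through Nr1i3 and Nr1i2, is a dim gene, at percentile 17.2 of brightness among the tested probe sets. It had 2.99, 3.39 and 4.05 in formulation mice against 3.74, 4.02 and 5.10 in untreated mice, and the groups overlapped at a change of -0.74 ± 0.18 (adjusted p 0.00483). Cyp2f2, the naphthalene-oxidising enzyme of periportal hepatocytes and of the airway, had 11.32, 11.80 and 11.87 against 11.86, 12.13 and 12.42 in untreated mice and changed by -0.41 ± 0.09 (adjusted p 0.0016). Cyp2d10 changed by -0.30 ± 0.08 (adjusted p 0.00947). Smaller falls were seen in Cyp2u1, Cyp2c50 and Cyp2c54, at -0.28, -0.24 and -0.22.

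Falls in Cyp2b13 and Cyp2d40 were called, but not with each array left out in turn. Cyp2b13, a female-predominant gene, changed by -0.42 ± 0.15 (adjusted p 0.0349) and Cyp2d40 by -0.37 ± 0.12 (adjusted p 0.0269). The call of Cyp2b13 was lost without formulation replicate 1, 3 or 5 or untreated replicate 1, 4 or 5, with changes of -0.48 to -0.34 over all arrays left out. The call of Cyp2d40 was lost without formulation replicate 4 or 5 or untreated replicate 4 or 5, with changes of -0.45 to -0.30. The count of 13 was 9 to 16 with 1 array left out. It was 8 after a further quantile normalization, 8 with a clock score of each array as covariate and 1 with array width. That width was 2.83 ± 0.05 (SD, n = 6) in formulation, 2.91 ± 0.03 in micro ZnO, 2.90 ± 0.06 in nano ZnO and 2.97 ± 0.07 in untreated mice, so array width and arm moved together.

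**Figure D2:**
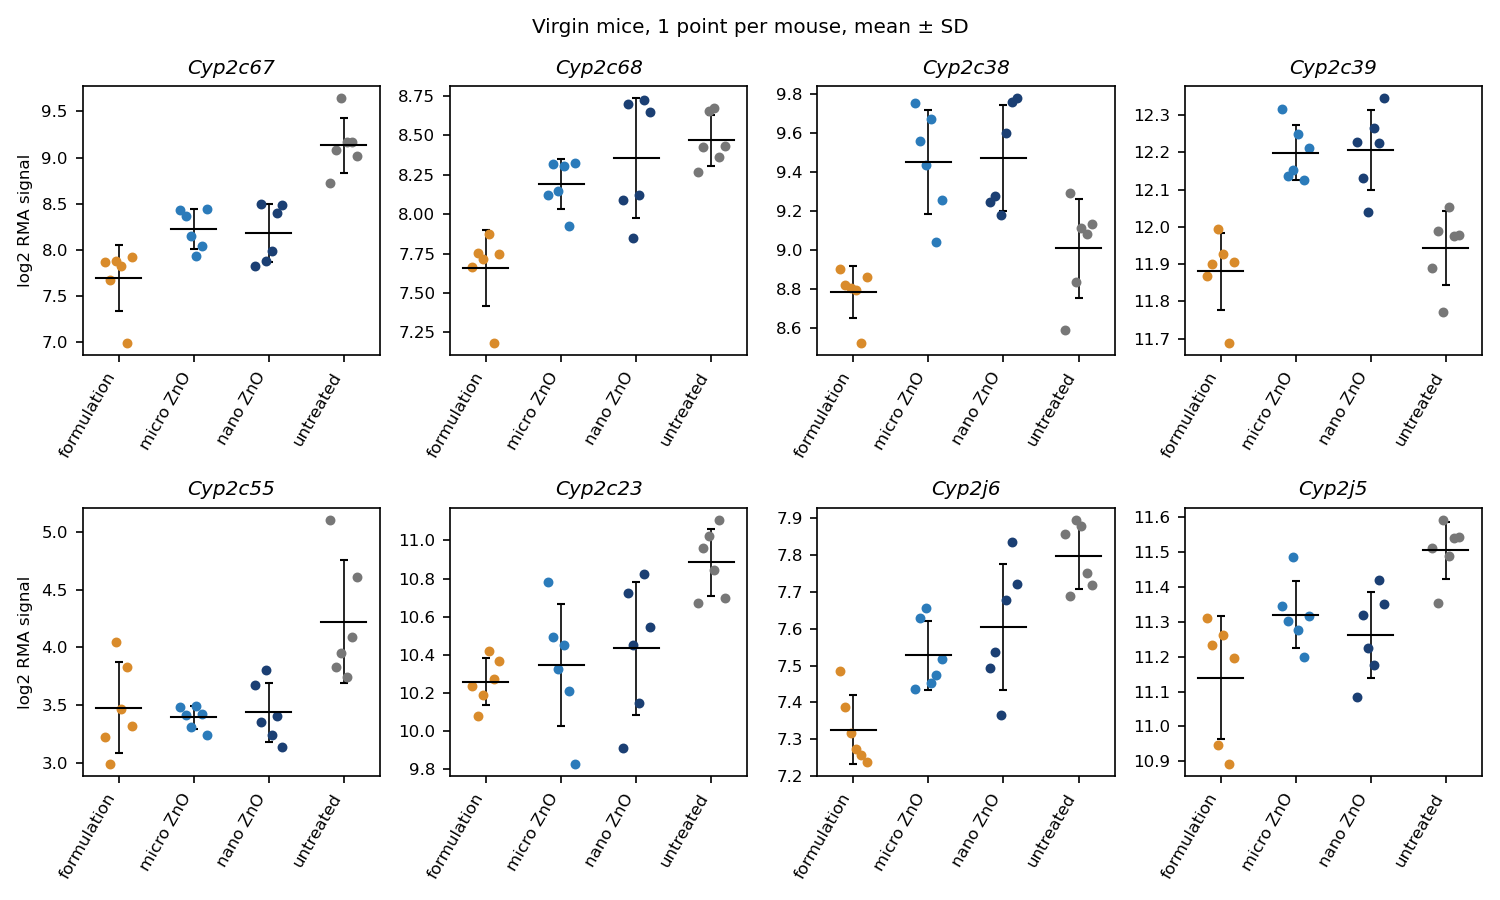
Log2 intensity of 8 P450 genes in the 4 virgin arms, with 1 point per mouse (n = 6 per arm) and the mean ± SD. All formulation mice lie below all untreated mice for Cyp2c67, Cyp2c68, Cyp2c23, Cyp2j5 and Cyp2j6, while Cyp2c38 and Cyp2c39 are higher in the micro ZnO and nano ZnO arms than in the formulation arm.

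With micro ZnO in the sunscreen P450 genes changed in both directions. Against untreated virgin mice 2 genes rose and 4 fell, 11.5% of the family beside 4.43% of all probe sets. The median log2 change was 0.04 over the family and 0.01 over all. Cyp2c67 had 7.94, 8.26 and 8.44 in micro ZnO mice (lowest, median, highest) against 8.73, 9.13 and 9.64 in untreated mice, without overlap, and changed by -0.91 ± 0.16 (adjusted p 0.00119). Cyp2c55 had 3.24, 3.42 and 3.49 against 3.74, 4.02 and 5.10 in untreated mice, also without overlap, and changed by -0.83 ± 0.18 (adjusted p 0.0104). Both calls held with each array left out in turn. Cyp2c23 changed by -0.54 ± 0.14 (adjusted p 0.025) and Cyp2j6 by -0.27 ± 0.07 (adjusted p 0.0331).

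The 2 genes that rose with micro ZnO were neighbours in the Cyp2c cluster. Cyp2c39, which hydroxylates retinoic acid, had 12.13, 12.18 and 12.32 in micro ZnO mice against 11.77, 11.98 and 12.05 in untreated mice and changed by 0.26 ± 0.07 (adjusted p 0.0247). The groups did not overlap. Cyp2c38, which acts on arachidonic acid, had 9.04, 9.50 and 9.75 in micro ZnO mice against 8.59, 9.10 and 9.29 in untreated mice, with overlap, and changed by 0.45 ± 0.13 (adjusted p 0.0427). In this arm some calls were lost with 1 mouse left out. These were Cyp2c23 (without micro ZnO mouse 5 or 6, or untreated mouse 3 or 5), Cyp2c39 (micro ZnO 1 or 4, untreated 1 or 3), Cyp2c38 (micro ZnO 1, 2, 3 or 4, untreated 1, 3, 4 or 5) and Cyp2j6 (micro ZnO 1, 4, 5 or 6, untreated 1, 3, 4 or 5). Their changes stayed within -0.62 to -0.43 for Cyp2c23, 0.22 to 0.28 for Cyp2c39, 0.36 to 0.53 for Cyp2c38 and -0.30 to -0.25 for Cyp2j6. The count of 6 was 2 without untreated replicate 3, 3 without micro ZnO mouse 4 or untreated mouse 1 or 5, 3 with array width as covariate and 1 with the clock score.

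With nano ZnO 5 genes rose and 6 fell, 21.2% of the family beside 11.9% of all probe sets. The median log2 change was 0.04 over the family and 0.02 over all. The largest rise was that of Cyp2a22, which had 7.61, 8.25 and 8.49 in nano ZnO mice against 5.99, 7.16 and 8.04 in untreated mice. The groups overlapped, with 4 of 6 nano ZnO mice above every untreated mouse, and the change was 1.01 ± 0.25 (adjusted p 0.0104). Cyp2c38 and Cyp2c39 rose by 0.47 ± 0.13 and 0.26 ± 0.07 (adjusted p 0.0178 and 0.0103). Cyp1a1, the textbook target of the aryl hydrocarbon receptor, is a dim gene, at percentile 21.6 of brightness among the tested probe sets. It had 3.73, 4.06 and 4.41 in nano ZnO mice against 3.20, 3.73 and 3.97 in untreated mice, a change of 0.40 ± 0.13 (adjusted p 0.0402) with overlap. Cyp2e1, the ethanol-oxidising enzyme of pericentral hepatocytes, had 13.08, 13.14 and 13.22 against 12.79, 12.94 and 13.08 in untreated mice and changed by 0.22 ± 0.07 (adjusted p 0.0328).

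The falls with nano ZnO included the 3 genes lowered in all 3 virgin arms, Cyp2c67, Cyp2c23 and the dim gene Cyp2c55. The 3 arms were set against the same untreated mice. Cyp2c67 had 7.82, 8.20 and 8.50 in nano ZnO mice against 8.73, 9.13 and 9.64 in untreated mice, without overlap, and changed by -0.96 ± 0.16 (adjusted p 0.000505). Cyp2d40 had 7.41, 7.77 and 8.13 against 8.16, 8.34 and 8.47 in untreated mice, without overlap, and changed by -0.58 ± 0.12 (adjusted p 0.00323). Cyp2c55 changed by -0.79 ± 0.18 (adjusted p 0.00735), Cyp3a44 by -0.64 ± 0.18 (0.0239), Cyp2c23 by -0.45 ± 0.14 (0.0315) and Cyp2j5 by -0.24 ± 0.08 (0.0376). Cyp3a44, a female-predominant gene, had 6.74, 7.75 and 8.07 in nano ZnO mice against 7.68, 8.40 and 8.54 in untreated mice, and the groups overlapped.

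Several nano ZnO calls were also lost with 1 mouse left out. Cyp1a1 was no longer called without nano ZnO replicate 2, 3, 4, 5 or 6 or untreated replicate 2, 3, 4 or 6 (0.31 to 0.46), and Cyp2e1 without nano ZnO 1, 3 or 5 or untreated 1 or 5 (0.19 to 0.25). The same held for Cyp2j5 without nano ZnO 1, 3 or 4 or untreated 1, 3, 4, 5 or 6 (-0.27 to -0.21), for Cyp2c23 without nano ZnO 1, 3 or 4 or untreated 3, 4 or 5 (-0.53 to -0.35), for Cyp3a44 without nano ZnO 4 or untreated 3 (-0.75 to -0.46) and for Cyp2c38 without untreated 1 (0.38 to 0.52). The calls of Cyp2a22, Cyp2c39, Cyp2c55, Cyp2c67 and Cyp2d40 held with each array left out. The count of 11 was 7 without nano ZnO replicate 4 or untreated replicate 3, 5 with array width as covariate and 0 with the clock score.

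Taking the virgin arms side by side, 19 of the 52 genes were called in at least 1 of them and 33 in none. For the mean of the 3 arms against untreated mice, a comparison added after the values were seen, 4 genes rose and 8 fell (23.1% of the family, 22% of all probe sets). The count of 12 was 2 with array width and 2 with the clock score as covariate, and Cyp2c67 was the 1 called gene in which all 18 sunscreen mice lay below every untreated mouse. Several drug-responsive P450 genes of the textbooks were among the 33. Cyp1a2, which oxidises caffeine and arylamines, differed from untreated mice by 0.21 in formulation, 0.02 in micro ZnO and 0.22 in nano ZnO mice, and Cyp1b1 by -0.14, -0.10 and -0.14. Cyp2b10, the main Nr1i3 target in mice, differed by -0.12, -0.51 and -0.39 with an SE of 0.30, and Cyp3a11, the main Nr1i2 target, by -0.13, -0.09 and -0.13 with an SE of 0.07. Cyp2c29 differed by -0.12, -0.07 and 0.05 and Cyp2b9 by 0.05, 0.19 and 0.16. None of these passed the test, with adjusted p of 0.104 or above.

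Against formulation mice, 4 of the 13 Cyp2c genes and no other P450 gene rose with micro ZnO, and 5 Cyp2c genes and Cyp2j6 rose with nano ZnO. None fell in either comparison. The same formulation mice served here and against untreated mice, so a low formulation value moves the 2 kinds of comparison in opposite directions. Against untreated mice Cyp2c68, Cyp2c50 and Cyp2c54 were called with neither particle sunscreen. The 4 genes of micro ZnO are 7.69% of the family, near the 6.83% of all probe sets (5.14% called higher), and the 6 of nano ZnO are 11.5% beside 3.25% of all (2.52% called higher). The median log2 change of the family was 0.11 with micro ZnO and 0.08 with nano ZnO, and that of all probe sets was -0.014 and -0.005. Cyp2c38 changed by 0.67 ± 0.13 with micro ZnO (adjusted p 0.00322) and 0.69 ± 0.13 with nano ZnO (0.00509). Every particle-treated mouse, from 9.04 to 9.75 with micro ZnO and from 9.18 to 9.78 with nano ZnO, lay above every formulation mouse, from 8.52 to 8.90.

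Cyp2c39 changed by 0.32 ± 0.07 with micro ZnO (adjusted p 0.00494) and 0.33 ± 0.07 with nano ZnO (0.00757), again without overlap. Cyp2c68 changed by 0.53 ± 0.13 with micro ZnO (adjusted p 0.017) and 0.70 ± 0.13 with nano ZnO (0.00635), to 7.92, 8.23 and 8.32 and to 7.85, 8.38 and 8.72 (lowest, median, highest). In the last comparison 5 of 6 nano ZnO mice lay above every formulation mouse. Cyp2c67 changed by 0.53 ± 0.16 with micro ZnO (adjusted p 0.0368), while its difference with nano ZnO, 0.49 ± 0.16, had an adjusted p of 0.0839. Cyp2c50, Cyp2c54 and Cyp2j6 rose with nano ZnO by 0.41 ± 0.08, 0.34 ± 0.07 and 0.28 ± 0.07 (adjusted p 0.00938, 0.00931 and 0.0346). The Cyp2c67 call with micro ZnO was lost without formulation replicate 2 or 5 or micro ZnO replicate 1, 2, 3 or 6 (0.39 to 0.59), and that of Cyp2c68 without formulation replicate 5 (0.44 to 0.58). Without that mouse the count of 4 was 2. With array width as covariate 1 gene was called for micro ZnO and 2 for nano ZnO, and with the clock score 9 and 5.

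**Figure D3:**
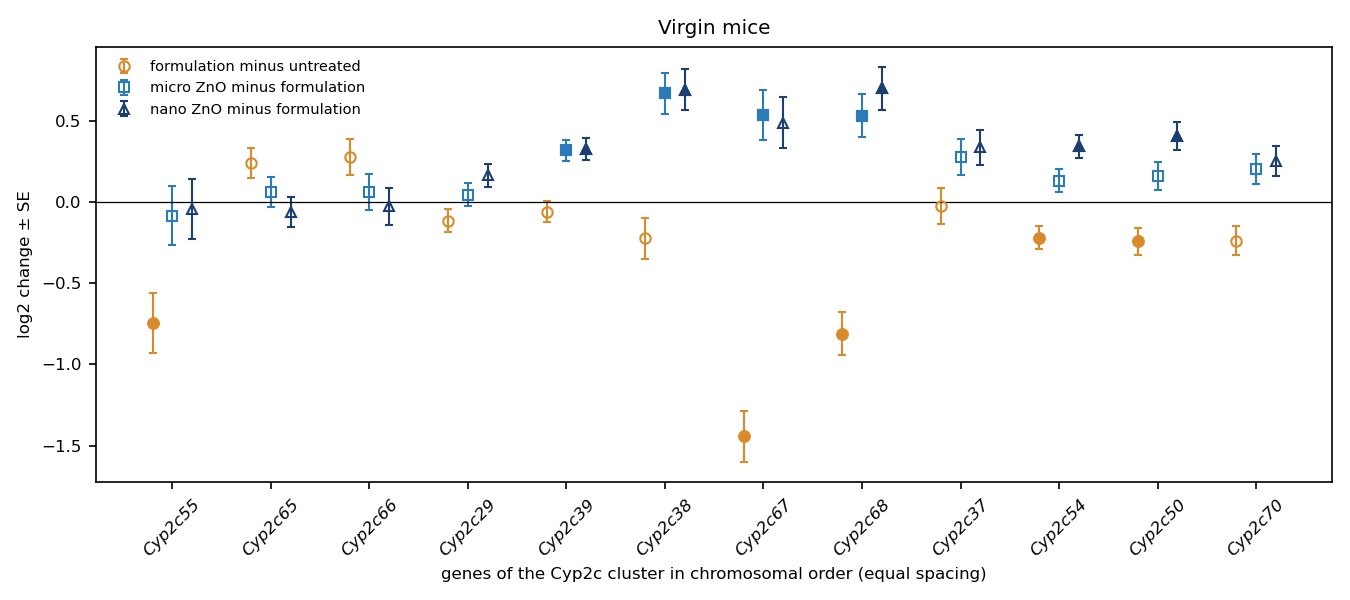
Log2 change ± SE of 12 Cyp2c genes in order of annotated start on chromosome 19, drawn at equal spacing. Changes are for virgin formulation against untreated mice and for micro ZnO and nano ZnO against formulation mice (n = 6 per arm). Filled points have an adjusted p under 0.05 (limma). Cyp2c67 and Cyp2c68 are lowest among the formulation points, and Cyp2c38, Cyp2c39 and Cyp2c68 are higher with both particles than in formulation mice. The same formulation mice enter all of these comparisons.

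The Cyp2c genes lie on chromosome 19. In order of annotated start come Cyp2c55, Cyp2c65, Cyp2c66, Cyp2c29, Cyp2c39, Cyp2c38, Cyp2c67 and Cyp2c68. Then follow 2 other coding genes, and after them Cyp2c37, Cyp2c54, Cyp2c50 and Cyp2c70. The annotated span of Cyp2c39 encloses Cyp2c38, and a further Cyp2c39 promoter window lies beyond Cyp2c38, so the order of this pair is uncertain. The 3 genes raised by both particle sunscreens relative to the base, Cyp2c39, Cyp2c38 and Cyp2c68, are neighbours of each other or of Cyp2c67. Cyp2c29, just before Cyp2c39 by annotated start, was not called in any virgin arm against untreated mice. Cyp2c23 lies 52 coding genes beyond the rest. The promoter windows of Cyp2c38 and Cyp2c39 (chr19:39347096-39347395) had 78.1% identity, against a median of 54.6% over all pairs of Cyp2c genes, with a single window per gene. These shares count gap columns, so windows that are offset against each other score lower. The further Cyp2c39 window, chr19:39510572-39510871, was not aligned.

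Between nano ZnO and micro ZnO 0 of the 52 genes were called by limma in virgin mice, and 0% of all probe sets. At an unadjusted p under 0.05 there were 8 P450 genes, against 4.72% of all probe sets. The 95% interval of the difference lay within 1 log2 unit of 0 for 51 of the 52 genes and within 0.5 for 44. For Cyp2c67 it ran from -0.37 to 0.27, for Cyp2c38 from -0.24 to 0.28 and for Cyp2a22 from -0.15 to 0.88. The smallest p was that of Cyp2d40, with 7.41, 7.77 and 8.13 in nano ZnO mice against 8.001, 8.35 and 8.59 in micro ZnO mice. Its difference was -0.55 ± 0.12 with an interval of -0.80 to -0.30 and an adjusted p of 0.961. The exception to the 1-unit bound was Cyp3a16, at -1.33 ± 0.56 (interval -2.48 to -0.18), the gene that varied most among virgin mice.

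Regulators and partners of P450 were measured on the same arrays. The counts of these and other gene lists in virgin mice stand beside 26.5%, 4.43% and 11.9% of all probe sets called with formulation, micro ZnO and nano ZnO. Of 12 measured receptors and partner factors 2 rose and 3 fell with formulation, 2 rose and 0 fell with micro ZnO, and 2 rose and 0 fell with nano ZnO. Cebpb, an inflammation-responsive factor, rose in all 3 arms by 0.88 ± 0.14, 0.51 ± 0.14 and 0.67 ± 0.14 (adjusted p 0.00014, 0.0343 and 0.0032). Nr1i3 changed by 0.66 ± 0.12 with micro ZnO and 0.61 ± 0.12 with nano ZnO (adjusted p 0.00229 and 0.00272), while its 0.23 ± 0.12 with formulation did not pass (0.166). Ahr and Nr1i2 were not called in any of the 3 arms. Ppara, the fatty acid receptor, fell with formulation by 0.44.

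Transcripts for heme and electron supply also changed. Alas1, the first enzyme of heme synthesis, rose by 1.48 ± 0.41 with micro ZnO and 1.86 ± 0.41 with nano ZnO (adjusted p 0.0405 and 0.00517), and differed by 0.97 ± 0.41 with formulation (0.0805). Of the 6 measured genes for electrons and heme, 0 rose and 3 fell with formulation, 1 rose and 1 fell with micro ZnO and 1 rose and 2 fell with nano ZnO. Cyb5r3, the reductase of cytochrome b5, fell in each arm, by 0.34, 0.41 and 0.43. Of the 7 genes of the growth hormone route 0 rose and 2, 1 and 1 fell in the 3 arms, with Stat5b at -0.41, -0.59 and -0.53. Of 9 measured receptor targets outside the family 0 rose and 4, 3 and 3 fell. Among these were Aldh1a1, a retinal dehydrogenase, at -0.41, -0.37 and -0.46, and Ces2a, a carboxylesterase, at -0.27, -0.36 and -0.45.

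Other gene groups moved with the arms. Acute phase genes rose with formulation, micro ZnO and nano ZnO in 11, 9 and 5 of 14 genes, and none fell. Clock genes of the Dbp phase rose in 4, 8 and 8 of 9 genes and those of the opposite phase fell in 1, 2 and 4 of 4, and a clock score built from them averaged -0.30 in formulation, 0.67 in micro ZnO, 0.87 in nano ZnO and -1.24 in untreated mice. Neutrophil markers rose in 6, 0 and 4 of 10 genes, with mean log2 levels of 4.28 to 5.07 in formulation, 3.98 to 4.46 in micro ZnO, 4.31 to 5.51 in nano ZnO and 4.09 to 4.19 in untreated mice. Endothelial markers fell in 4, 5 and 5 of 8 genes, with mean levels of 5.69 to 5.91, 5.63 to 5.91 and 5.72 to 5.89, against 5.99 to 6.16 in untreated mice. Of the 8 Kupffer cell markers 1 fell in each arm, of the 6 stellate cell markers 1 rose and 2 fell with formulation, 2 fell with micro ZnO and 1 fell with nano ZnO, and of 4 cholangiocyte markers 0 were called. Of the 8 pericentral genes, which include Cyp1a2, Cyp2e1, Cyp2c29 and Cyp3a11, 1 rose with nano ZnO (Cyp2e1) and none was called in the other arms. Of the 5 periportal genes, which include Cyp2f2, 2 fell with formulation (Cyp2f2 among them) and 1 with nano ZnO. The clock score ran from -0.193 to 1.855 in micro ZnO and from 0.607 to 1.155 in nano ZnO mice, both without overlap with the -1.583 to -0.856 of untreated mice, so in these comparisons clock score and arm cannot be told apart. The part of these shifts in the P450 changes was not tested.

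In pregnant mice no P450 gene passed the test in any arm against untreated mice. Limma called 0 of the 52 with formulation, 0 with micro ZnO and 0 with nano ZnO, beside 0.0598%, 0.107% and 0.0214% of all probe sets. At an unadjusted p under 0.05 there were 5, 8 and 6 of the 52, beside 12.3%, 9.08% and 10.2% of all probe sets. The 95% interval lay within 1 log2 unit of 0 for 46, 49 and 49 of the genes, with a median distance from estimate to bound of 0.28 with formulation, against 0.20 in virgin mice. Acute phase genes rose in 8, 10 and 4 of 14 genes in the same arms. Of the 10 neutrophil markers 3 rose with micro ZnO and 0 were called with formulation or nano ZnO. Their mean log2 level was 4.47 to 4.94 in formulation, 4.95 to 6.02 in micro ZnO, 4.51 to 6.34 in nano ZnO and 4.13 to 4.52 in untreated mice, and micro ZnO alone did not overlap with untreated mice. Of the 8 endothelial markers 0 were called, with mean levels of 4.98 to 5.31, 4.87 to 5.45 and 5.04 to 5.39, against 5.30 to 5.66 in untreated mice. Kupffer, stellate and cholangiocyte markers had 0 called genes, with Kupffer levels of 5.80 to 6.37, 6.37 to 7.30 and 6.06 to 6.66, against 6.11 to 6.46 in untreated mice. Their part in the P450 differences was not tested. Receptors, electron and heme genes, the growth hormone route and receptor targets had 0 called genes. Clock genes of the Dbp phase had 0 called, and the clock score spread from -2.22 to 0.92 in untreated pregnant mice.

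Cyp2a22 had the smallest p of the family in all 3 pregnant arms, which were set against the same untreated mice. The direction was opposite to that in virgin mice, where nano ZnO was the only single arm with a call of this gene. Its log2 intensity was 5.49, 5.90 and 6.65 in formulation mice (lowest, median, highest), 5.96, 6.45, 5.43, 5.69 and 6.12 in the micro ZnO mice, and 5.79, 5.93 and 6.39 in nano ZnO mice. The untreated mice had 6.65, 6.30, 7.17, 7.53 and 7.12. Below every untreated mouse lay 5 of 6 formulation, 4 of 5 micro ZnO and 4 of 6 nano ZnO mice. The changes were -0.96 ± 0.21, -1.02 ± 0.22 and -0.92 ± 0.21, with adjusted p of 0.0904, 0.064 and 0.185. For the mean of the 3 arms, a comparison chosen after the values were seen, the change was -0.97 ± 0.18 (adjusted p 0.0152), with 13 of 17 sunscreen mice below every untreated mouse. This was the 1 P450 gene called there (1.92% of the family, 0.175% of all probe sets). The call was lost without untreated replicate 3, 4 or 5, with changes of -1.13 to -0.82, and with either covariate, which left a count of 0. Cyp2a22 also passed for formulation without formulation replicate 5 or untreated replicate 2, and for micro ZnO without mouse 2 of that arm or untreated mouse 2.

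**Figure D4:**
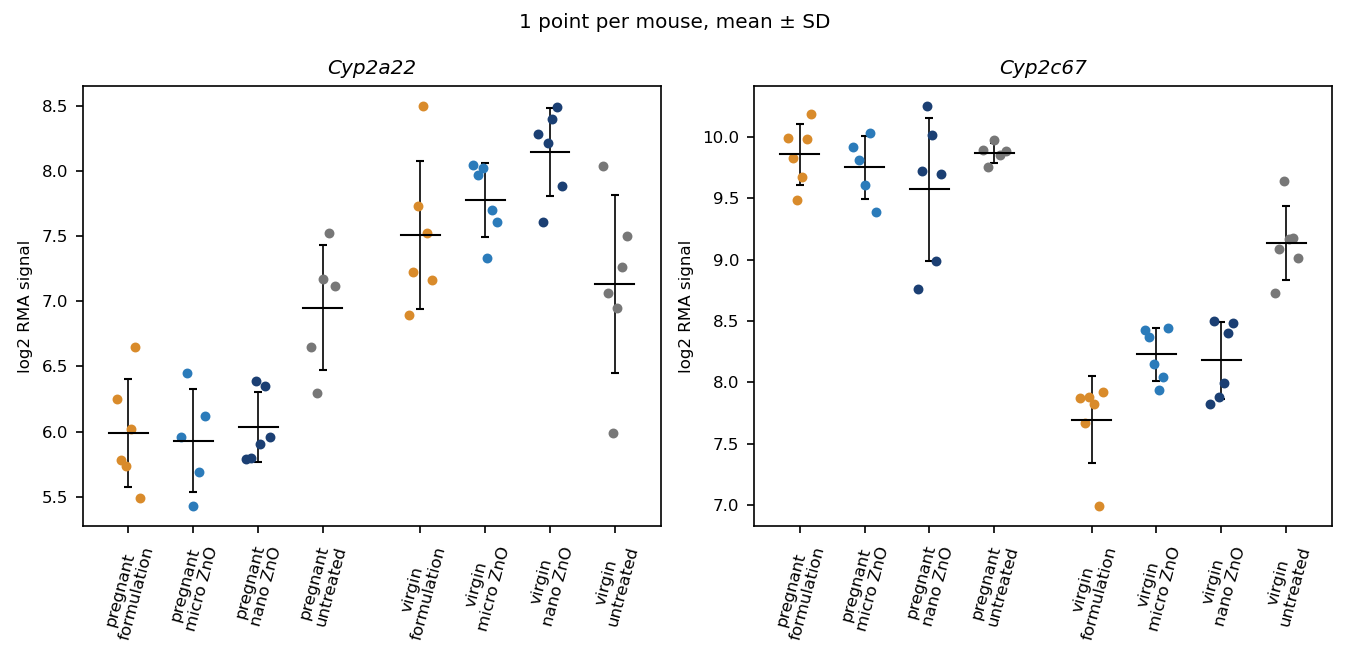
Log2 intensity of Cyp2a22 and Cyp2c67 in the 8 groups, with 1 point per mouse and the mean ± SD (n = 5 or 6). Cyp2a22 averages lower in the pregnant sunscreen arms than in untreated pregnant mice and higher in virgin nano ZnO than in untreated virgin mice, while Cyp2c67 is lowered in the virgin arms and overlaps between the pregnant groups.

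Other differences in pregnant mice did not pass the test either. Cyp2b9, a female-predominant Cyp2b gene, had 9.75, 10.01, 8.28, 8.60 and 10.01 in the 5 micro ZnO mice against 10.17, 10.01, 10.58, 9.96 and 10.49 in untreated mice. Replicates 3 and 4 of the micro ZnO arm stood well below the other 3, which bordered the untreated range. Its differences were -0.56 ± 0.23 with formulation, -0.91 ± 0.24 with micro ZnO and -0.46 ± 0.23 with nano ZnO (adjusted p 0.352, 0.174 and 0.494). Cyp2b13 differed by -0.59, -0.93 and -0.49, and Cyp2b10 by 0.50, 0.35 and 0.66. Cyp3a13 had 8.14, 8.55 and 9.11 in formulation mice against 7.97, 8.26, 7.60, 7.65 and 8.32 in untreated mice, and differed by 0.64 ± 0.17 (adjusted p 0.217). Cyp2c67, the most lowered gene in virgin mice, had 9.49, 9.91 and 10.19 in pregnant formulation mice against 9.89, 9.75, 9.98, 9.85 and 9.88 in untreated mice. Its difference was -0.01 ± 0.19, with a 95% interval of -0.41 to 0.39.

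Among the pregnant sunscreen arms 0 genes were called for micro ZnO against formulation, nano ZnO against formulation or nano ZnO against micro ZnO, and 0% of all probe sets in each (limma). Unadjusted p under 0.05 were found for 3, 1 and 1 of the 52 genes, beside 7%, 3.07% and 4.64% of all probe sets. The smallest p values were those of Cyp2a12 at -0.23 ± 0.09, Cyp2u1 at -0.26 ± 0.11 and Cyp2c55 at 0.41 ± 0.15. All 52 intervals lay within 1 log2 unit of 0 in each of the 3 comparisons.

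The responses of pregnant and virgin mice were compared directly in a model of all 46 arrays. For formulation 1 gene differed (1.92% of the family, 0.145% of all probe sets), Cyp2c67, whose response was higher in pregnant mice by 1.43 ± 0.26 (adjusted p 0.00529). For micro ZnO limma called 0 (0.047% of all), with 7 genes at an unadjusted p under 0.05, beside 7.43% of all probe sets. For nano ZnO 1 differed (0.0427% of all), Cyp2a22, whose response was lower in pregnant mice, with a difference of -1.93 ± 0.35 (adjusted p 0.00596). For the mean of the arms 1 differed (0.0812% of all), again Cyp2a22, at -1.65 ± 0.29 (adjusted p 0.00398). The Cyp2a22 difference with micro ZnO was -1.67 ± 0.36 (adjusted p 0.0533) and with formulation -1.34 ± 0.35 (0.122). The Cyp2c67 difference was 0.79 ± 0.26 with micro ZnO and 0.66 ± 0.26 with nano ZnO (adjusted p 0.362 and 0.684). The 3 called differences held under all 9 alternatives and with each array left out, with ranges of 1.29 to 1.51 for Cyp2c67 and of -2.11 to -1.70 and -1.83 to -1.42 for Cyp2a22.

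Untreated pregnant livers differed from untreated virgin livers in most of the family. As deposited, 4 genes were higher and 42 lower in pregnant mice, 88.5% of the family beside 91.4% of all probe sets, but all probe sets together were shifted by a median of -0.61. After 1 quantile normalization of all arrays the median of all probe sets moved to -0.003, and 10 genes were higher and 18 lower, 53.8% of the family beside 31.6% of all. The median of the family was then -0.10. Since the experiments were separate, pregnancy and experiment cannot be told apart, here or in the responses above. The values that follow are those after this joint normalization. Cyp2g1, Cyp2c65, Cyp3a57, Cyp2c70 and Cyp2a12 were called higher there but lay below 0 as deposited. Of these, Cyp2g1, Cyp2c65 and Cyp3a57 are dim, at percentiles 22.8, 3.9 and 8.2 of brightness among the tested probe sets.

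**Figure D5:**
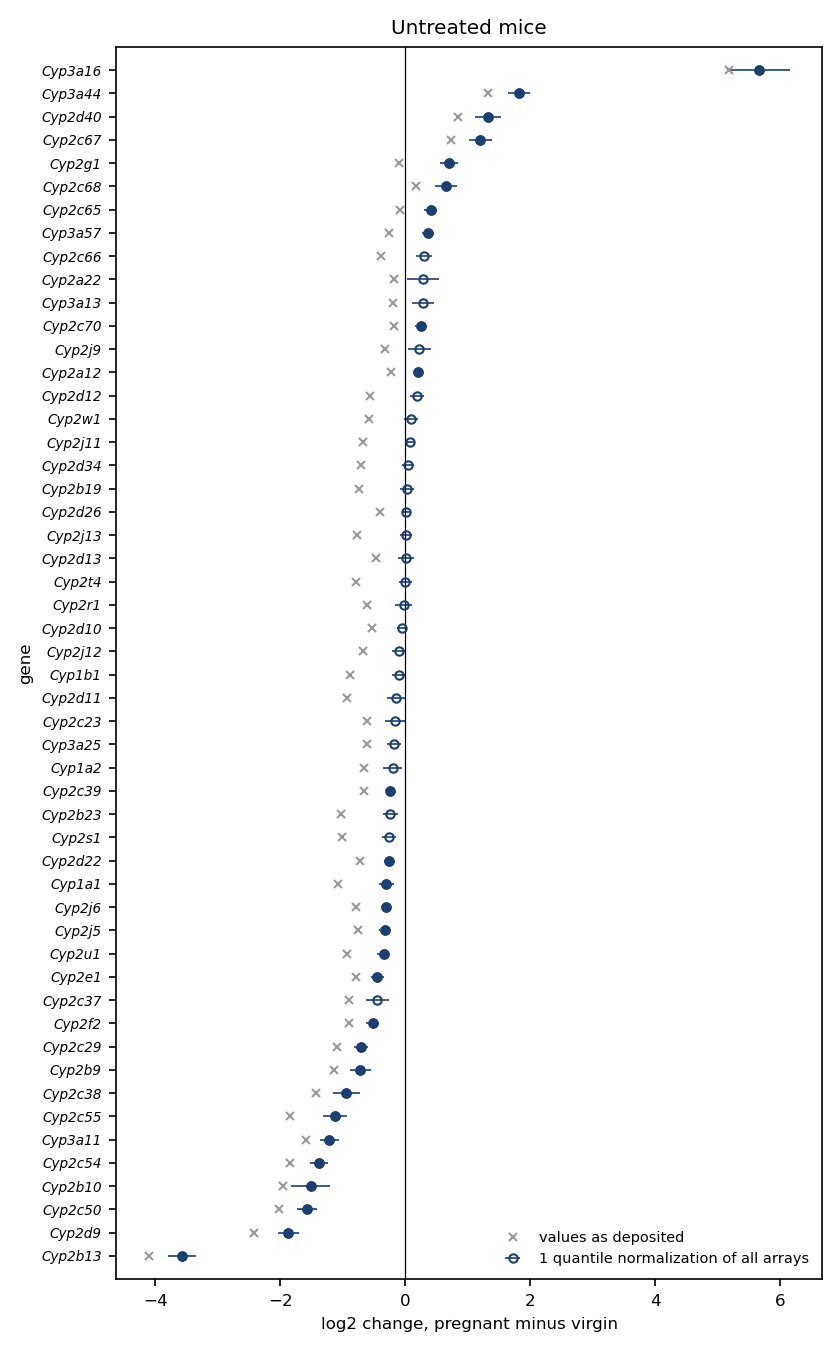
Log2 change of the 52 P450 genes in untreated pregnant (n = 5) against untreated virgin mice (n = 6), sorted, after 1 quantile normalization of all arrays (circles ± SE, filled where the adjusted p is under 0.05) and as deposited (crosses). Cyp3a16 stands at 5.66 and Cyp2b13 at -3.57, and the crosses lie to the left of the circles.

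Cyp3a16, known in mice as a form of fetal and female liver, showed the largest difference. The 5 pregnant mice had 10.25, 10.29, 10.12, 10.14 and 10.15, against 2.82, 4.82 and 5.80 in virgin mice (lowest, median, highest). The groups were far apart, and the spread among virgin mice was wide. The change was 5.66 ± 0.50 (adjusted p 7.72e-12), and 5.18 as deposited. Its relative Cyp3a44 had 9.90, 9.72, 9.94, 9.41 and 9.86 in pregnant mice against 7.41, 8.08 and 8.33 in virgin mice, without overlap, a change of 1.83 ± 0.17 (adjusted p 4.53e-11). Cyp3a11 went the other way, with 10.59, 10.16, 10.73, 10.68 and 11.00 in pregnant mice against 11.74, 11.80 and 12.04 in virgin mice, and changed by -1.21 ± 0.15 (adjusted p 4.66e-08).

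The promoter windows of the Cyp3a pair are shown because both genes were higher in pregnant mice. Capitals mark bases that differ between the windows or have no partner in the alignment. Cyp3a16 is at chr5:145469674-145469973 and Cyp3a44 at chr5:145805825-145806124, both on the minus strand of GRCm38.p6 (RefSeq).
Cyp3a16: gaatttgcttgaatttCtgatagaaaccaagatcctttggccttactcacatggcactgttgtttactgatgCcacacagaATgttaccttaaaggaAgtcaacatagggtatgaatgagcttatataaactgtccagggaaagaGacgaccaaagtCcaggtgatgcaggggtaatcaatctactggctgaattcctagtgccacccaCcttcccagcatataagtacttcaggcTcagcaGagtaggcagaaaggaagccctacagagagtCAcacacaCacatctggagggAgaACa
Cyp3a44: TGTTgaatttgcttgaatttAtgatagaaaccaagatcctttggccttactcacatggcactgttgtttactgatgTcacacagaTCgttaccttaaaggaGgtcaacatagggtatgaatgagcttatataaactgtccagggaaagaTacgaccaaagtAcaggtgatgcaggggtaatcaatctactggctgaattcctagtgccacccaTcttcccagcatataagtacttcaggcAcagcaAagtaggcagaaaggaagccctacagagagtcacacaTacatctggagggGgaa
They had 93.4% identity over 304 columns, with 12 substitutions and 8 columns against a gap. Counted from 1 at the 5′ end of the Cyp3a16 window, the substitution C158A falls inside the HNF4 letters of Cyp3a16 at position -99, and the same letters were not found in the Cyp3a44 window. Copies this close can share probe signal, and the array has 2 probe sets with several symbols that include Cyp3a44, so the split of signal between these genes is uncertain.

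Of the 5 Cyp2b genes 3 were lower in pregnant mice, and Cyp2b19 and Cyp2b23 were not called. Cyp2b13 had 5.61, 5.45, 6.27, 6.44 and 6.13 in pregnant mice against 9.26, 9.54 and 9.92 in virgin mice, a change of -3.57 ± 0.22 (adjusted p 1.5e-16). Cyp2b9 had 10.32, 10.21, 10.77, 10.13 and 10.70 against 11.09, 11.14 and 11.20 in virgin mice, a change of -0.72 ± 0.16 (adjusted p 7e-04). Neither gene overlapped between the groups. Cyp2b10 had 8.79, 8.65, 8.98, 8.48 and 8.03 in pregnant mice against 9.43, 10.11 and 11.04 in virgin mice and changed by -1.51 ± 0.31 (adjusted p 0.000223).

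The windows of Cyp2b13 and Cyp2b9 are shown because their levels moved so unequally. Cyp2b13 is at chr7:26061245-26061544 and Cyp2b9 at chr7:26173159-26173458, both on the plus strand of GRCm38.p6 (RefSeq), and capitals again mark the bases that differ.
Cyp2b13: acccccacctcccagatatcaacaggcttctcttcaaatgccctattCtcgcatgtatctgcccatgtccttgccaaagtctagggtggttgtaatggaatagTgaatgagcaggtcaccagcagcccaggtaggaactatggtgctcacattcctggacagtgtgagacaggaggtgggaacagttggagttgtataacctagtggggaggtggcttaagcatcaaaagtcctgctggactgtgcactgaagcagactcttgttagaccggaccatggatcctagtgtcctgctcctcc
Cyp2b9: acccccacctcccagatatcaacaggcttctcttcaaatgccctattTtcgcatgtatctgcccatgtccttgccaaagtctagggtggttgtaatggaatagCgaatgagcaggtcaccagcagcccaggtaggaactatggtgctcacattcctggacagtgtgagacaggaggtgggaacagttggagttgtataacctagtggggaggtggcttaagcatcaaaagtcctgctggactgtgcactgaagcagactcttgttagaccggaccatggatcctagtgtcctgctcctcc
They had 99.3% identity over 300 columns with 0 gaps. Counted from 1 at the 5′ end of Cyp2b13, the substitutions were C48T and T104C. Cross-hybridisation between the transcripts was not tested.

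Outside these subfamilies the directions were mixed. Cyp2d40 was higher in pregnant mice, with 9.79, 9.42, 9.51, 8.89 and 9.23 against 7.94, 8.03 and 8.16 in virgin mice (1.33 ± 0.21, adjusted p 3.98e-06). Cyp2c67 had 10.06, 9.95, 10.14, 10.00 and 10.09 in pregnant mice against 8.35, 8.86 and 9.38 in virgin mice (1.20 ± 0.18, adjusted p 2.05e-06). Neither overlapped. Cyp2d9, the male-predominant testosterone hydroxylase of mice, was lower, with 5.56, 5.92, 6.37, 6.29 and 5.97 in pregnant mice against 7.45, 7.86 and 8.40 in virgin mice (-1.87 ± 0.17, adjusted p 1.15e-11). Cyp2c50 and Cyp2c54, adjacent on chromosome 19, changed by -1.57 and -1.39 (adjusted p 1.28e-10 and 4.15e-10), and the dim gene Cyp2c55 by -1.13 (1.59e-05). In each of Cyp2d9, Cyp2c50, Cyp2c54 and Cyp2c55 all 5 pregnant mice lay below every virgin mouse. Cyp2c38, raised by the particle sunscreens relative to the base in virgin mice, changed by -0.94 (adjusted p 0.000657), with 4 of 5 pregnant mice below every virgin mouse.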

How the data were processed

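Liver RNA was measured on Affymetrix whole-transcript arrays, 1 per mouse, for 46 mice in 8 groups. The deposited table holds log2 intensity per probe set from the authors' RMA processing (background correction, quantile normalization and summary of probes), per the submitters' processing notes. No version is given there. All 46 columns were used, and 0 were left out. Of 35512 probe sets 21789 had 1 symbol, 1621 several and 12102 none, per the platform annotation, and the 23410 with a symbol were tested.

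From these values limma 3.58.1 in R 4.3.3 gave two-sided moderated tests. Within each experiment 1 coefficient per arm was fitted over all its arrays, and a model of the 8 groups gave the differences between experiments. P values were adjusted by Benjamini-Hochberg over all 23410 probe sets. Replicates are separate mice per the labels. The fit was tested on simulated data before use. Promoter windows of RefSeq (GRCm38.p6) were matched by Entrez gene identifier, aligned globally with Biopython 1.88 and searched for letters on both strands. All 52 symbols matched the GRCm38.p6 gene table. Plots used Python 3.11.15 with matplotlib 3.10.9, pandas 2.3.3 and numpy 2.4.6.

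The genes, lists, tests and alternatives were chosen with earlier results of these data known. The text names a gene for each textbook role, the 10 largest called changes each way of an arm against untreated mice, the 5 largest each way of other comparisons (12 for pregnant against virgin mice) and, with none called, the smallest p. A few other genes were named after their values were seen.

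Alternatives left out probe sets below the 40th percentile of brightness, used trend and robust moderation, array weights, a further quantile normalization within an experiment, 1 quantile normalization of all arrays, the replicate number as a block, or left out each array in turn. Covariates were also used, the interquartile range of each array and a clock score, which is the mean of 9 genes of the Dbp phase minus that of 4 measured genes of the opposite phase. For the score each gene was first set relative to its mean within the experiment, so pregnant and virgin scores share no common zero. Added after the values were seen were the mean of the 3 arms against untreated mice and a fit without 2 pregnant micro ZnO arrays.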

Additional observations from a re-analysis of the deposited data

Results flagged for a closer look

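In 232 groups of 29 genes, 15 values stood apart from their group by Dixon's test, some of them from the same array. Chance gives about 1 in 20 groups. Virgin formulation replicate 5 was low in 5 genes, with log2 intensities of 6.992 for Cyp2c67 (others 7.669 to 7.925), 7.185 for Cyp2c68 (7.667 to 7.874), 8.522 for Cyp2c38 (8.794 to 8.901), 11.319 for Cyp2f2 (11.746 to 11.874) and 7.16 for Cyp3a44 (7.783 to 8.121). The array of this mouse had the narrowest interquartile range of all arrays, 2.76, and the highest median, 4.901. Its clock score, 0.817, was the highest of its arm. The 5 genes are bright, at percentile 92.9 or above among the tested probe sets. The part of array width or clock score in these low values was not tested. Without this mouse the formulation changes were -1.30 for Cyp2c67, -0.72 for Cyp2c68 and -0.33 for Cyp2f2, and all 3 were called.

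In the other virgin arms Cyp1a2 had 10.379 in micro ZnO replicate 6 (others 10.839 to 11.101) and Cyp2c65 had 2.798 in micro ZnO replicate 2 (2.077 to 2.293). Cyp3a11 had 12.289 in untreated replicate 6 (11.929 to 12.051).

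Pregnant nano ZnO replicate 1 was low for Cyp2d10 at 9.055 (others 9.544 to 9.712) and for Cyp2d40 at 7.779 (8.826 to 9.372), and nano ZnO replicate 6 had 1.926 for Cyp2c65 (2.126 to 2.233). Cyp2c29 had 10.741 in pregnant micro ZnO replicate 4 (11.227 to 11.388), and Cyp2u1 had 4.775 in pregnant formulation replicate 6 (5.021 to 5.093). In untreated pregnant mice Cyp2c38 had 8.054 in replicate 2 (7.377 to 7.553) and Cyp2d10 had 9.685 in replicate 3 (9.469 to 9.525).

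In 3 comparisons the response differed between pregnant and virgin mice by the test of the difference itself (limma). These were Cyp2c67 with formulation at 1.43, Cyp2a22 with nano ZnO at -1.93 and Cyp2a22 over the mean of the arms at -1.65. The Cyp2c67 values of sunscreen and untreated mice overlapped in pregnant mice, while in virgin mice all 18 sunscreen mice lay below every untreated mouse.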

How the results depend on the processing

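Of the 16 planned counts of called P450 genes, and 3 added later, those for nano ZnO against micro ZnO in virgin mice and for the sunscreen arms of pregnant mice against each other were 0 under every alternative run. For virgin formulation the 13 calls became 8 after a further quantile normalization, 1 with array width as covariate and 8 with the clock score. For micro ZnO the 6 became 2 with the replicate block, 3 with array width and 1 with the clock score. For nano ZnO the 11 became 7 with the replicate block, 5 with array width and 0 with the clock score. Micro ZnO against formulation, 4 genes, gave 1 with array width and 9 with the clock score, and nano ZnO against formulation, 6 genes, gave 2 with array width. The mean of the virgin arms, 12 genes, gave 2 with either covariate.

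In pregnant mice formulation gave 1 with array weights and 1 without micro ZnO replicates 3 and 4, and the mean of the arms gave 0 with either covariate. The difference in response to formulation gave 2 without those arrays. That to micro ZnO gave 1 without dim probe sets, 1 after a further and 1 after a joint quantile normalization, and 2 with array width. That to the mean of the arms gave 2 without dim probe sets, 2 with array weights and 3 without those arrays. Pregnant against virgin untreated mice gave 28 in place of 46 after the joint normalization.

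With 1 array left out the counts were 9 to 16 for virgin formulation, 2 to 6 for micro ZnO, 7 to 11 for nano ZnO, 2 to 6 for micro ZnO against formulation, 5 to 9 for nano ZnO against formulation and 8 to 15 for the mean of the arms. In pregnant mice they were 0 to 1 for formulation, 0 to 2 for micro ZnO and 0 to 1 for the mean of the arms. The differences in response gave 1 to 2 for formulation, 0 to 2 for micro ZnO, 1 for nano ZnO and 1 to 2 for the mean of the arms, and untreated pregnant against virgin mice gave 45 to 46.

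Replicate numbers did not pair the mice: deviations of same-numbered pregnant mice correlated at -0.147 to 0.232 and those of virgin mice at -0.351 to 0.198, and 3 of 22 pregnant and 0 of 24 virgin arrays were closest to their own number. The replicate block gave 10 for virgin formulation. Of the changes of named genes 1 reversed, that of Cyp2e1 with nano ZnO, to -0.0315 with the clock score. With array width 37 of them were no longer called, and with the clock score 31 besides that of Cyp2e1. The cause was not tested. No gene had several probe sets, so the alternative of another probe set could not be run. The alternative without dim probe sets gave no value for dim genes such as Cyp1a1 and Cyp2c55. Array numbers of 5 and 6 limit what can be detected, and detection above background was not available to this test.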
